A study of Homo sapiens with 12 samples.

Results

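The megakaryocyte genes described here are FLI1, ITGA2B, ITGB3, GP9, PF4, PPBP, TUBB1 and SELP, a set of 8 genes among the 20033 protein-coding genes of the annotation. Every region of H2A.Z or acetylated H2A.Z (H2A.Zac) that touched a gene body or the 10 kb to each side of it was taken, on hg38 with GENCODE release 44. Of the 158028 regions in the 6 deposited lists, 79 lay at these loci, 26 of 63442 for H2A.Z and 53 of 94586 for H2A.Zac. PF4 and PPBP are neighbors, and 2 of the 79 regions lay in both loci and were counted once.

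The study asked what the attachment of TRRAP does for the TIP60 complex, using the human leukemia line K562 (from chronic myeloid leukemia), whose labelled cell type is lymphoblast. Both lines carry a degradation tag on endogenous EP400 and were given 500 nM dTAGV-1 for 24 h, and each stably expresses EP400 from the AAVS1 locus, either WT or Delta-TRRAP (ΔTRRAP), which lacks the TRRAP-binding segment. There are 2 biological replicates of input, H2A.Z ChIP and H2A.Zac ChIP per line, 12 libraries in all, and 1 clone stands for each line, so that the genotype and the clone cannot be told apart. The authors merged the replicates and compared the lines once per mark, and each region carries 1 value, the log10 likelihood ratio of the 2 lines. Regions with a ratio of 3 or more are called lost here where the signal was higher in WT and gained where it was higher in ΔTRRAP. The rest are called unchanged, which means only that the ratio was under 3. The ratio depends on depth as well and is not a fold change, and its relation to width was not examined. No value per replicate and no depth was given in these lists, so no spread and no test between the lines could be had, and intervals on shares (Wilson, 95%) cover counting error only. The libraries measure chromatin and not RNA, so whether these cells transcribe the genes, and whether the labelled cell type holds, was not analysed here.

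Megakaryocytes are the bone marrow cells that shed platelets, and they share a progenitor with the red cell lineage. K562 cells carry features of that shared progenitor and can be pushed toward either lineage, for which they have long served as a model. H2A.Z is a histone H2A variant found at promoters and enhancers, and TIP60, whose ATPase subunit is EP400, acetylates it. The transcription factors GATA1 (which binds GATA motifs) and FLI1 (an ETS factor) act together on many megakaryocyte genes.

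Of the 8 genes, 5 were found in the RefSeq promoter table (GRCh38.p14), which holds 250 bases before and 50 bases after a start, and 3 of these promoters are shown because they differ in what lay over them. The ITGA2B promoter was under an unchanged H2A.Z region and under both a lost and an unchanged H2A.Zac region, the TUBB1 promoter was under gained H2A.Zac regions without H2A.Z, and the PPBP promoter was under no listed region. Capitals mark matches on either strand to a GATA motif (AGATAA, or the variant TGATAA), to the ETS motif GGAAG, to its longer forms AGGAAG (one base more) or CCGGAAG (with a pair more), or to the E-box CACGTG. Both longer forms contain the short one.
ITGA2B promoter, chr17:44389600-44389899, minus strand: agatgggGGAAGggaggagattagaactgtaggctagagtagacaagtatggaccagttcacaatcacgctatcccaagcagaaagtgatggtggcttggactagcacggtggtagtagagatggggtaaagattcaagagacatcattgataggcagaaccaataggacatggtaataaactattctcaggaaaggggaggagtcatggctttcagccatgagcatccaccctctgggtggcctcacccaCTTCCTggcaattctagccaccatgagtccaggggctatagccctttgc
TUBB1 promoter, chr20:59019179-59019478, plus strand: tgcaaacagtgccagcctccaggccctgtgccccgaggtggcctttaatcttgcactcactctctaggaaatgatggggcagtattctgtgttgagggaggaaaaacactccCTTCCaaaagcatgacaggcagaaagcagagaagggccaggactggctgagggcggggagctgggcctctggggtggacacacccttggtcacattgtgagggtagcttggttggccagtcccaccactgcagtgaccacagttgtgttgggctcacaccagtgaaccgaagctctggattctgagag
PPBP promoter, chr4:73988141-73988440, minus strand: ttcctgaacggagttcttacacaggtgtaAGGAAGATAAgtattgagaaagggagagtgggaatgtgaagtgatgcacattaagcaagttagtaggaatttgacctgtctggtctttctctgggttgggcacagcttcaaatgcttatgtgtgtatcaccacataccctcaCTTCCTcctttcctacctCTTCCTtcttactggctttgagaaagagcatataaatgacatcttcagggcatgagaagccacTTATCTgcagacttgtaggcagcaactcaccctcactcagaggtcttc

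The PPBP promoter held 2 AGATAA matches and 3 AGGAAG matches, and the first AGGAAG overlapped the first AGATAA. The ITGA2B promoter held 2 GGAAG matches, of which 1 extended to AGGAAG, and the TUBB1 promoter held 1 GGAAG and neither GATA word. The GP9 promoter had 2 GGAAG matches and the SELP promoter had 4 along with 1 TGATAA. Neither CCGGAAG nor the E-box was in any of the 5 windows. Among 35116 RefSeq promoters of this length, AGATAA was in 10.3%, TGATAA in 7.53%, GGAAG in 71.9%, AGGAAG in 33.6%, CCGGAAG in 10.3% and CACGTG in 7.26%. A match is a run of letters and was not tested as a binding site.

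Across the 8 loci, both directions of change were present for both marks. H2A.Zac had 13 lost, 12 gained and 28 unchanged regions, and H2A.Z had 5 lost, 2 gained and 19 unchanged. Genome-wide, 25.9% of H2A.Zac regions were lost and 26.3% gained, and 19.8% of H2A.Z regions were lost and 14.1% gained. Of the changed H2A.Zac regions at the loci, 48.0% (30.0 to 66.5%) were gained, beside 50.4% of all changed H2A.Zac regions. The same share for H2A.Z was 28.6% (8.22 to 64.1%), beside 41.6%. Both intervals contain the genome-wide share, so a difference in direction was not detectable at this number of regions.

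**Figure D1:**
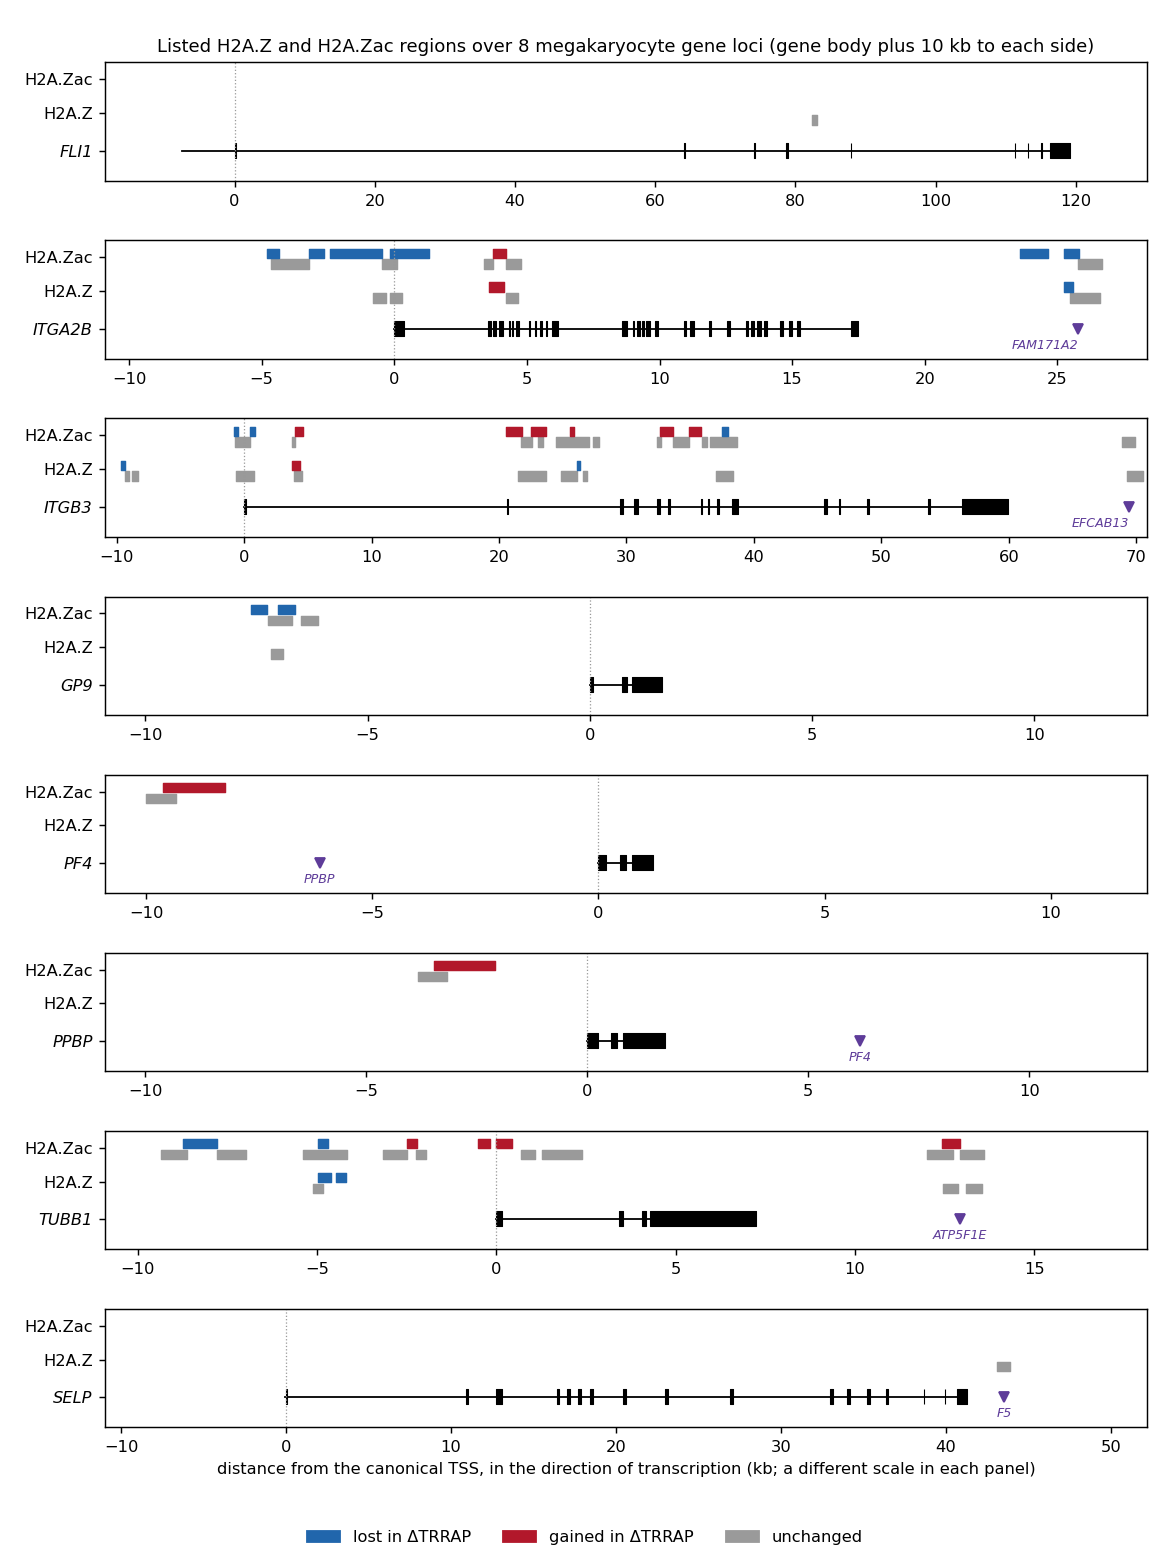
Listed regions at each of the 8 loci, plotted by distance in kb from the canonical transcription start site (TSS) in the direction of transcription, with the exons of the canonical transcript in black and the starts of neighboring coding genes as triangles. Blue regions were lost, red gained and gray unchanged in ΔTRRAP; ITGA2B, ITGB3 and TUBB1 hold most of the regions, and FLI1 and SELP hold 1 gray H2A.Z region each.

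The regions were spread unevenly over the genes. ITGB3 had 20 H2A.Zac regions, TUBB1 15 and ITGA2B 12, where the median protein-coding locus had 4. Only 1.44% of protein-coding loci had as many as ITGB3, and 7.38% had at least as many as ITGA2B. GP9 had 4, PF4 and PPBP shared 2, and FLI1 and SELP had 0. H2A.Zac regions covered 31.8% of the TUBB1 locus, 26.1% of the ITGA2B locus and 19.8% of the ITGB3 locus, but 9.3% of all 8 loci together. H2A.Z regions covered 4.03% of the 8 loci.

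By gene, 4 of the 8 loci had a lost H2A.Zac region and 5 had a gained one, and ITGA2B, ITGB3 and TUBB1 had both. Among all protein-coding loci, 49.8% had a lost H2A.Zac region, 59.4% a gained one and 32.8% both. For H2A.Z, 3 of the 8 loci had a lost region and 2 a gained one, beside 27.3% and 26.6% of protein-coding loci. These shares lie near the background. An H2A.Zac region of any class lay within 1 kb of a TSS at 3 of the 8 genes (13.7 to 69.4%), beside 69.1% of protein-coding genes, and an H2A.Z region at 2 of the 8 (7.15 to 59.1%), beside 67.0%. With 8 genes these intervals are wide. The first contains its background share and the second lies below it, by counting error alone and with no test. Within 1 kb of a TSS, 2 genes had a lost and 2 a gained H2A.Zac region (22.3% and 41.4% of protein-coding genes). There, 0 genes had a lost and 1 had a gained H2A.Z region (9.31% and 16.2%).

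FLI1 encodes the ETS family transcription factor that drives megakaryocyte genes, and it lies on the plus strand at chr11:128686535-128813267 (ENSG00000151702). Its 146.7-kb locus, the longest of the set, held a single region. This was an unchanged H2A.Z region of 747 bp at chr11:128776429-128777175, in intron 4 and 82.36 kb downstream of the canonical TSS, with a likelihood ratio of 0.217. No H2A.Zac region lay at the locus, and no region of either mark lay within 1 kb of any of its 8 annotated transcript starts. The surroundings were sparse as well. Within 1 Mb to each side there were 4 lost, 0 gained and 2 unchanged H2A.Zac regions, and 4 H2A.Z regions, all unchanged.

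ITGA2B and ITGB3 encode the chains of integrin αIIbβ3, the fibrinogen receptor through which platelets aggregate. ITGA2B (αIIb or CD41, ENSG00000005961) lies on the minus strand at chr17:44372180-44389649 and has 30 exons. H2A.Zac around its TSS was listed as lost in several stretches of the promoter and upstream sequence, with unchanged regions among them. The lost region over the TSS, chr17:44388344-44389805, spanned exon 1 and part of intron 1, was 1462 bp wide and had a likelihood ratio of 8.55. The next lost region upstream, chr17:44390099-44392079, was 1981 bp wide with a ratio of 12.1. Lost regions with ratios of 7.06 and 3.95 followed 2.64 and 4.34 kb upstream of the TSS, and an unchanged H2A.Zac region of 1415 bp (ratio 0.854) lay between them and overlapped the farther one. Between the lost region over the TSS and the next one, and sharing bases with both, lay an unchanged H2A.Zac region of 563 bp that also spans the TSS, so the promoter and the upstream sequence were both divided between classes.

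H2A.Z at the ITGA2B promoter was listed as unchanged. One H2A.Z region of 460 bp spanned the TSS with a ratio of 0.460, and another of 486 bp lay 0.32 kb upstream with a ratio of 0.296. H2A.Z covered 31.5% of the lost H2A.Zac region over the TSS and 17.7% of the lost region next to it. The lost regions farther upstream had no H2A.Z under them. The lower H2A.Zac at this promoter was thus listed without a listed change of H2A.Z, although a ratio under 3 does not show that H2A.Z was equal in the lines.

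The opposite was listed farther inside the gene. At chr17:44385438-44385929, over exons 3 and 4 and 3.72 kb downstream of the canonical TSS, a gained H2A.Zac region of 492 bp had a likelihood ratio of 13.8, above that of 84.8% of gained H2A.Zac regions. A gained H2A.Z region of 556 bp with a ratio of 6.09, chr17:44385515-44386070, covered 86.8% of it. Within 1 kb of these regions lay 6 annotated starts of other ITGA2B transcripts, so that the gain lay at internal starts and the loss at the canonical one. On both sides the gained H2A.Zac region met unchanged ones of 584 and 339 bp. It was 1 of only 2 places in the set where both marks were gained.

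**Figure D2:**
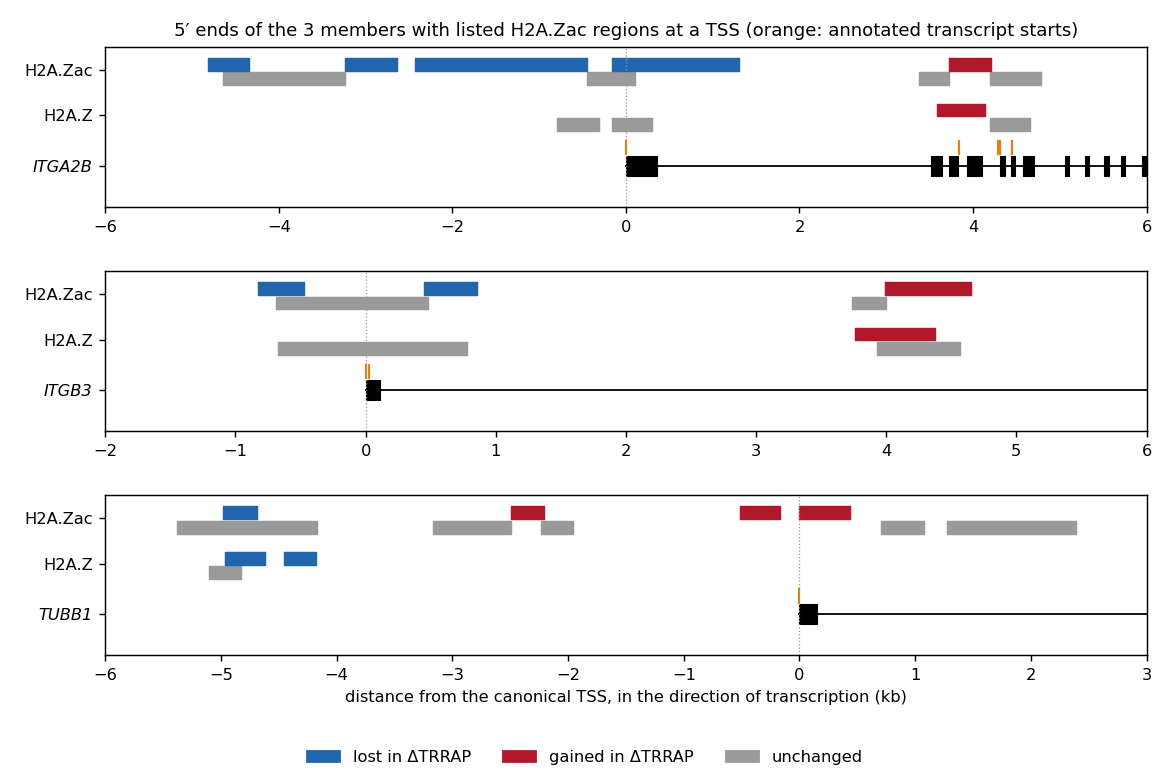
The 5′ ends of ITGA2B, ITGB3 and TUBB1 by distance in kb from the canonical TSS, with lost regions in blue, gained in red, unchanged in gray, exons in black and annotated transcript starts as orange ticks. At ITGA2B the blue H2A.Zac regions lie at the TSS and the red ones of both marks begin 3.58 and 3.72 kb inside the gene, at ITGB3 blue H2A.Zac regions flank a gray one over the TSS, and at TUBB1 the H2A.Zac regions at the TSS are red and have no H2A.Z below them.

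Beyond the 3′ end of ITGA2B, the 10-kb flank reached FAM171A2, a neighboring coding gene on the same strand. There the lost H2A.Zac region chr17:44363848-44364385 had a ratio of 9.75 and lay over a lost H2A.Z region of 342 bp with a ratio of 5.49. Unchanged regions of H2A.Zac (893 bp, ratio 0.395) and H2A.Z (1131 bp, ratio 0.616) spanned the FAM171A2 start and shared bases with that lost H2A.Zac region. A second lost H2A.Zac region, chr17:44364994-44366048, had a ratio of 22.9, the highest at any of the 8 loci and above 91.7% of lost H2A.Zac regions, and had no H2A.Z under it. Both lie over 23 kb from the ITGA2B TSS and nearer to FAM171A2 and the pseudogene RPL7L1P5 than to any ITGA2B start, and which gene they relate to was not tested.

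ITGB3 (β3 or CD61, ENSG00000259207) lies on the plus strand at chr17:47253827-47313743 and has 15 exons. At its TSS the center of the promoter was listed as unchanged and the edges as lost. An unchanged H2A.Zac region of 1166 bp (ratio 1.16) and an unchanged H2A.Z region of 1457 bp (ratio 0.402) both spanned the TSS. On the upstream side a lost H2A.Zac region of 355 bp, chr17:47252997-47253351, had a ratio of 4.95. On the downstream side, in intron 1, a lost H2A.Zac region of 407 bp, chr17:47254274-47254680, had a ratio of 5.59. Both overlapped the ends of the unchanged regions, and both ratios are in the lower part of the lost list, above 16.2% and 24.0% of it. An unnamed read-through gene, ENSG00000259753, starts close to the ITGB3 TSS, and these regions cannot be assigned to one of them.

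The gene body of ITGB3 was where H2A.Zac was gained. All 6 gained regions of the locus lay inside the gene, in introns 1, 2, 5 and 6, with 2 of them reaching into exons 2 and 6. The first, chr17:47257820-47258475, was 3.99 kb downstream of the TSS with a ratio of 7.62, and a gained H2A.Z region of 617 bp with a ratio of 3.54 covered part of it. The strongest, chr17:47274340-47275597, lay 20.51 kb downstream with a ratio of 8.03 and was 1258 bp wide. Those at 22.52, 25.59, 32.61 and 34.90 kb had ratios of 5.79, 3.74, 7.65 and 6.57. Gained regions thus ran from intron 1 to intron 6, among unchanged ones that partly shared their bases. They covered 5337 bp against 1210 bp of lost H2A.Zac at this locus. The gained region at 25.59 kb lay wholly inside an unchanged H2A.Zac region of 2593 bp. An unchanged H2A.Zac region of 384 bp lay inside the gained one at 22.52 kb. The first gained region and the one at 25.59 kb lay within 1 kb of the starts of other genes annotated inside ITGB3, RNU7-186P and ENSG00000276790.

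A few places at ITGB3 went the other way. A lost H2A.Zac region of 448 bp with a ratio of 3.82 lay in intron 9, 37.53 kb downstream and within 1 kb of an internal transcript start. A lost H2A.Z region of 284 bp with a ratio of 5.82 lay in intron 2, just downstream of the gained H2A.Zac region at 25.59 kb without sharing bases with it. Another, chr17:47244182-47244443, lay 9.38 kb upstream with a ratio of 7.53 and no H2A.Zac over it. At the far end of the locus, the promoter of EFCAB13 and EFCAB13-DT carried unchanged regions of both marks.

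GP9 encodes a subunit of the GPIb-IX-V complex, the receptor for von Willebrand factor, and is a short gene at chr3:129060779-129062406 on the plus strand (ENSG00000169704). No region lay over the gene or within 1 kb of its TSS. All 5 of its regions formed a cluster upstream, with their near edges 6.12 to 7.26 kb from the TSS. The lost H2A.Zac regions chr3:129053149-129053514 and chr3:129053754-129054150 had ratios of 6.45 and 4.32. The 2 unchanged H2A.Zac regions had ratios of 1.44 and 1.03, and the only H2A.Z region, of 277 bp, had a ratio of 0.230. No gain was listed. The central 200 bases of the stronger lost region, chr3:129053232-129053431 on the plus strand of hg38, are shown because that cluster is all that was listed for GP9.
GP9 upstream region: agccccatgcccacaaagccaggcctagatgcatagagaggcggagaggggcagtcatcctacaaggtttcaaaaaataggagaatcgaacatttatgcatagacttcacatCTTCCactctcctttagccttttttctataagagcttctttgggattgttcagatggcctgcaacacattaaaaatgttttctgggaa

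PF4 and PPBP encode CXC chemokines stored in platelet alpha granules, platelet factor 4 and the precursor of the β-thromboglobulin family. They lie side by side on the minus strand at chr4:73980811-73982027 (ENSG00000163737) and chr4:73986439-73988190 (ENSG00000163736). Neither gene had a region of either mark over its body or within 1 kb of its TSS. Both loci held the same pair of H2A.Zac regions upstream of PPBP. The gained one, chr4:73990279-73991645, was 1367 bp wide with a ratio of 7.59, and lay 2.09 kb upstream of PPBP and 8.25 kb upstream of PF4. The unchanged one overlapped it on the far side, with a ratio of 1.03. No H2A.Z region was listed at either locus, a combination found at 4.01% of protein-coding loci.

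The PPBP upstream region was poor in GC, at 34.5% for the gained region and 31.6% for the unchanged one, where the median gained H2A.Zac region of the genome had 48.6%. Its central 200 bases, chr4:73990863-73991062 on the minus strand of hg38, are shown because it was the only changed region of both genes. They held none of the motifs searched, which is a statement about these letters alone. Of the central 200 bases of all H2A.Zac regions, 53.7% held GGAAG, 25% AGGAAG, 7.16% TGATAA, 4.0% CACGTG and 2.72% CCGGAAG, and 9463 of 94586 held AGATAA.
PPBP upstream region: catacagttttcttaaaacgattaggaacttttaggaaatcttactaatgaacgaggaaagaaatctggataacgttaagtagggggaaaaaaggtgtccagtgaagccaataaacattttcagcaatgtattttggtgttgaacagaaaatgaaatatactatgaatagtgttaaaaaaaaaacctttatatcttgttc

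TUBB1 encodes the β1-tubulin of the marginal band that shapes platelets. It lies on the plus strand at chr20:59019429-59026654 (ENSG00000101162). Here the promoter itself gained H2A.Zac. The gained region chr20:59019421-59019863 spanned the TSS and exon 1 with a ratio of 6.22. Another, chr20:59018913-59019263, ended 0.17 kb upstream with a ratio of 8.70. A gained region of 292 bp with a ratio of 5.09, chr20:59016934-59017225, lay farther upstream. No H2A.Z region was under any of these 3, and none lay within 1 kb of the TSS.

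Farther upstream of TUBB1 the listed changes were losses of both marks, among unchanged regions that shared bases with some of them. Lost H2A.Zac regions lay 4.69 and 7.78 kb upstream with ratios of 3.73 and 5.27. The nearer one lay over a lost H2A.Z region of 351 bp with a ratio of 5.23. Another lost H2A.Z region, of 281 bp with a ratio of 4.06, lay 4.18 kb upstream. The lost H2A.Zac region at 4.69 kb lay wholly inside an unchanged one of 1212 bp (ratio 1.17). The ratio of 3.73 was above only 2.47% of the lost list. An unchanged H2A.Z region (ratio 1.36) shared bases with it and with the lost H2A.Z region of 351 bp. Unchanged H2A.Zac regions also overlapped the ends of the lost one at 7.78 kb. Of the 15 H2A.Zac regions of the locus, 9 were unchanged. The farther lost H2A.Zac region, chr20:59010695-59011644, was nearer to the start of CTSZ (2.93 kb), which lies outside the locus, than to that of TUBB1, and which gene it relates to was not tested. At the other end lay the promoter of ATP5F1E, which encodes a subunit of ATP synthase, and of the unnamed gene ENSG00000289837. It had a gained H2A.Zac region of 487 bp with a ratio of 4.32, above 11.9% of the gained list, and 2 unchanged H2A.Z regions. Unchanged H2A.Zac regions of 726 bp (ratio 1.28) and 683 bp (ratio 0.923) lay there too. The wider of them overlapped the gained region, and the other spanned the ATP5F1E start, which the gained region did not reach.

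SELP encodes P-selectin, the adhesion molecule that alpha granules bring to the surface of activated platelets. It lies on the minus strand at chr1:169588849-169630193 (ENSG00000174175). No region of either mark lay over the gene or within 1 kb of any of its 7 transcript starts. The single region of the locus was an unchanged H2A.Z region of 793 bp, chr1:169586241-169587033, with a ratio of 0.637. It spans the start of F5, the neighboring gene for coagulation factor V, and lies beyond the 3′ end of SELP. FLI1 and SELP were the members with H2A.Z and no H2A.Zac at the locus, which held for 1.81% of protein-coding loci. They were also those with no changed region, as were 21.5% of protein-coding loci.

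**Figure D3:**
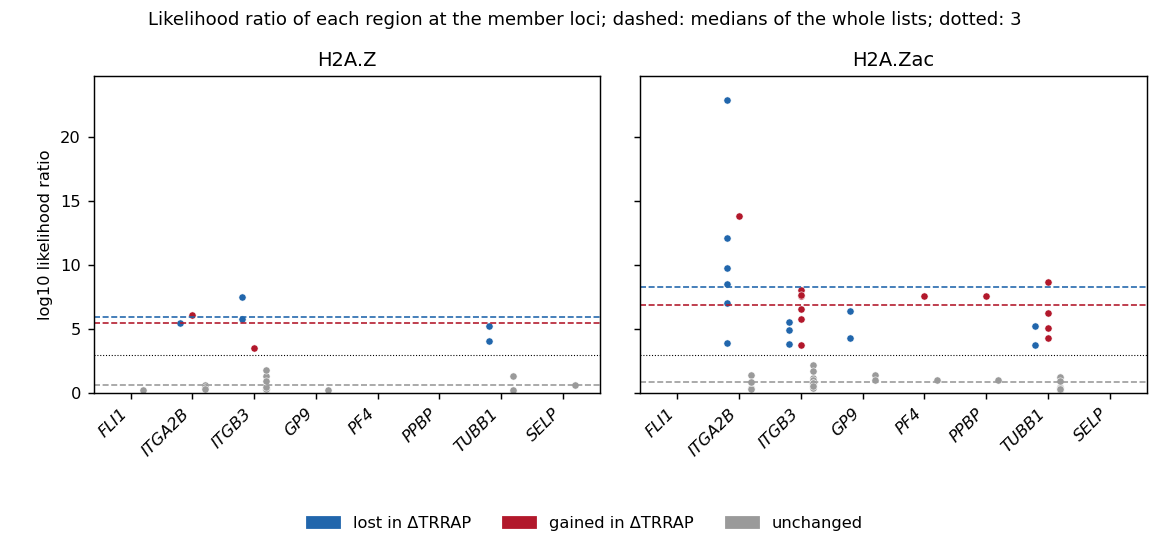
Log10 likelihood ratio (linear axis) of every listed region at each locus, for H2A.Z on the left and H2A.Zac on the right, with lost regions in blue, gained in red and unchanged in gray; dashed lines are the medians of the whole lists and the dotted line is the cutoff of 3. The H2A.Zac points above 10 all belong to ITGA2B, and the H2A.Z points reach at most 7.53.

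The likelihood ratios of lost H2A.Zac at these loci were mostly under the median of the whole list, and the median of gained H2A.Zac was close to that of its list. The median likelihood ratio was 5.59 for the 13 lost and 7.08 for the 12 gained H2A.Zac regions, where the whole lists had medians of 8.27 and 6.87. For H2A.Z the medians were 5.49 (lost) and 4.81 (gained), beside 5.95 and 5.48. Lost H2A.Zac regions at the loci were also narrower, with a median of 475 bp against 702 bp for the list. How the ratio relates to width was not examined, and the ratio does not give the size of a change. A ratio of at least 10 was reached by 3 H2A.Zac regions, all at ITGA2B, of which 1 was gained, and by 0 H2A.Z regions.

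Of the 13 lost H2A.Zac regions 46.2% (23.2 to 70.9%) lay within 1 kb of the start of any gene, beside 21.7% of all lost ones, and of the 12 gained regions 41.7% (19.3 to 68.0%), beside 37.9%. The loci were drawn around genes and the whole lists were not, so a share at the loci is not like for like with that of a list. These shares do not count internal transcript starts, whereas the counts by place that follow do. Within 1 kb of a member's own transcript starts, internal ones included, there were 5 lost and 3 gained regions, from ITGA2B, ITGB3 and TUBB1. In the rest of the gene bodies there were 0 lost and 4 gained regions, all at ITGB3. In the flanks away from any start there were 6 lost and 2 gained, the losses at ITGA2B, GP9 and TUBB1 and the gains at PPBP and TUBB1. The other 2 lost and 3 gained regions lay near starts of other genes. Of the lost H2A.Z regions, 3 of 5 lay in flanks and 2 near starts of other genes, and both gained ones lay inside ITGA2B and ITGB3. Since ITGB3 alone supplied 6 of the 12 gained H2A.Zac regions, and parts of 1 peak can be several regions, these counts describe the loci and are no test.

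Changes of H2A.Zac were compared with the H2A.Z beneath them. Of the 53 H2A.Zac regions, 27 had at least 25% of their length on an H2A.Z region (50.9%, 37.9 to 63.9%), beside 60.5% of all H2A.Zac regions. Of the 13 lost ones, 2 lay on lost and unchanged H2A.Z, 5 on unchanged H2A.Z alone and 6 on none. Of the 12 gained ones, 1 lay on gained H2A.Z, 1 on gained and unchanged H2A.Z, 3 on unchanged H2A.Z alone and 7 on none. The shares on H2A.Z of any class were 53.8% (29.1 to 76.8%) for lost and 41.7% (19.3 to 68.0%) for gained H2A.Zac, beside 55.0% and 57.1% of all lost and gained ones. On H2A.Z changed the same way lay 15.4% (4.33 to 42.2%) of the lost and 16.7% (4.7 to 44.8%) of the gained regions, beside 28.6% and 18.7% genome-wide. None lay on H2A.Z changed the opposite way, which was also rare genome-wide, at 5 of 24482 lost and 8 of 24844 gained regions. The intervals contain the genome-wide shares, so no difference from other loci was detectable. In the other direction, 21 of the 26 H2A.Z regions lay on H2A.Zac, 80.8% beside 82.8% of all. Regions of one mark that belonged to different classes often shared bases, in 39 of the 53 H2A.Zac regions and 7 of the 26 H2A.Z regions (49.3% and 27.3% genome-wide). For H2A.Zac this was above the genome-wide share and for H2A.Z near it, with no test. The borders between lost, gained and unchanged are thus not sharp, least of all for H2A.Zac at these loci.

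The surroundings of the genes leaned in different directions. The 5-Mb window that holds TUBB1 (55 to 60 Mb on chromosome 20) had 47 changed H2A.Z regions and 0 of them gained (upper Wilson limit 7.56%), while 29.2% (19.9 to 40.5%) of its 72 changed H2A.Zac regions were gained. TUBB1 itself had 4 gained of 6 changed H2A.Zac regions, and its 2 changed H2A.Z regions were lost. Around PF4 and PPBP, by contrast, 70.3% (59.1 to 79.5%) of 74 changed H2A.Z regions were gained, though neither locus had any H2A.Z region. For H2A.Zac 46.9% (37.4 to 56.7%) of 98 changed regions in that window were gained, and within 1 Mb to each side of PPBP 35.0% (24.2 to 47.6%) of 60 were, which lies below the genome-wide 50.4%. Within 1 Mb of TUBB1 these were 0 of 24 for H2A.Z and 38.2% (23.9 to 55.0%) of 34 for H2A.Zac.

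**Figure D4:**
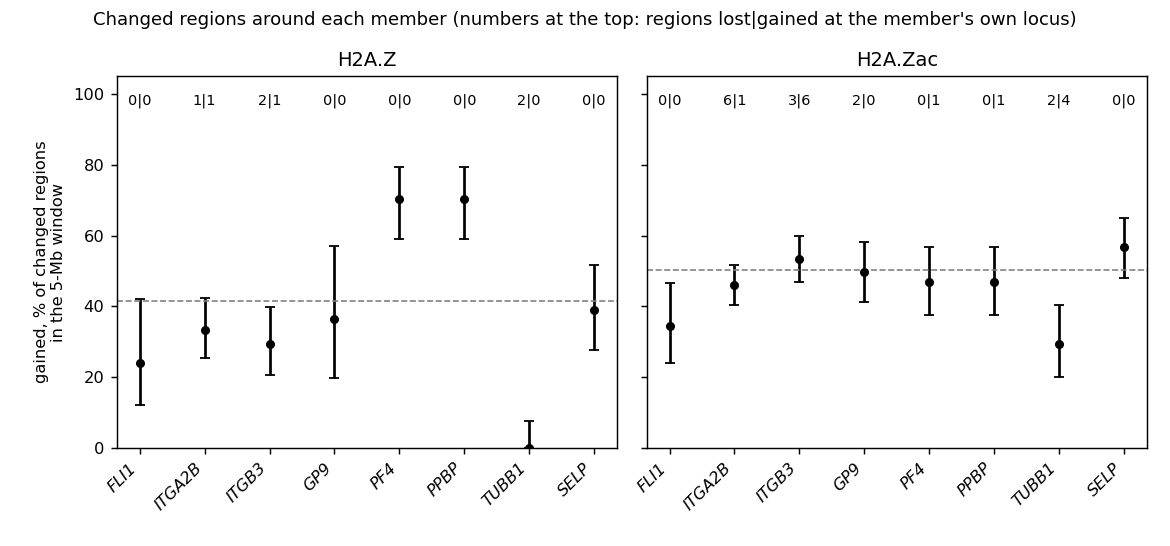
Share of changed regions that were gained in the 5-Mb window around each gene, in percent, for H2A.Z on the left and H2A.Zac on the right; points are shares, bars are Wilson 95% intervals and the dashed line is the genome-wide share (41.6% and 50.4%). The numbers along the top are the lost and gained regions of the gene's own locus; TUBB1 sits at 0 for H2A.Z, PF4 and PPBP share 1 window at 70.3%, and the window of ITGB3 is at 53.5% for H2A.Zac.

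Around ITGB3, 29.3% (20.5 to 39.9%) of 82 changed H2A.Z regions and 53.5% (47.0 to 59.9%) of 228 changed H2A.Zac regions were gained. Around ITGA2B these shares were 33.3% (25.4 to 42.3%) of 117 and 46.0% (40.3 to 51.8%) of 287. The ITGA2B locus itself had 1 gained of 7 changed H2A.Zac regions (2.57 to 51.3%), with 2 of its 6 losses beyond the 3′ end by FAM171A2, and the ITGB3 locus had 6 of 9 (35.4 to 87.9%). Both intervals contain the share of the gene's own window. Around FLI1 24.1% (12.2 to 42.1%) of 29 changed H2A.Z and 34.4% (23.9 to 46.6%) of 64 changed H2A.Zac regions were gained. For GP9 these were 36.4% of 22 and 49.6% of 131, and for SELP 39.0% of 59 and 56.7% of 127.

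Among 47 other genes of megakaryocytes and platelets, 27 loci had a lost and 30 a gained H2A.Zac region, 17 had both, and 7 had none of any class. These are 57.4% and 63.8% of the 47, beside the 49.8% and 59.4% of protein-coding loci. For H2A.Z, 14 had a lost and 10 a gained region, 29.8% and 21.3% of the 47 beside 27.3% and 26.6% of protein-coding loci. By regions there were 121 lost and 88 gained for H2A.Zac and 63 lost and 22 gained for H2A.Z. Genome-wide, 50.4% of changed H2A.Zac and 41.6% of changed H2A.Z regions were gained, so H2A.Z losses outnumbered gains there too. The 12 transcription factor loci alone supplied 55 of the lost H2A.Zac and 33 of the lost H2A.Z regions. A difference from the genome-wide shares was not tested. Within 1 kb of a TSS, 15 of the 47 had a lost and 21 a gained H2A.Zac region, 6 of them both, where 22.3% of protein-coding genes had a lost and 41.4% a gained one. There, 9 of the 47 had a lost and 7 a gained H2A.Z region, 1 of them both, beside 9.31% and 16.2% of protein-coding genes.

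The counts by role follow without a test between roles, and the background is 59.4% of protein-coding loci for gained and 49.8% for lost H2A.Zac. All 12 transcription factors had a gained H2A.Zac region at the locus and 6 had a lost one as well. By regions these 12 loci held 55 lost, 45 gained and 97 unchanged for H2A.Zac and 33 lost and 14 gained for H2A.Z. The median protein-coding locus had only 4 H2A.Zac regions. A locus with many regions is more likely to hold a gained region, and the number of regions per locus was not adjusted for. The genome-wide shares of changed regions that were gained are 50.4% for H2A.Zac and 41.6% for H2A.Z. Of 16 surface receptors and adhesion molecules, 10 had a lost and 8 a gained H2A.Zac region, and of 10 granule and secreted proteins 5 and 4. The 9 genes of the cytoskeleton, signalling and lipid mediators had 6 and 6. Gained H2A.Z regions were at 5 and lost ones at 3 of the 12 transcription factor loci, and at 0 and 3 of the 10 granule gene loci. They were at 3 and 3 of the 16 surface receptor and adhesion loci. At the 9 loci of the cytoskeleton, signalling and lipid mediators they were at 2 and 5. The background is 26.6% (gained) and 27.3% (lost) of protein-coding loci.

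The strongest losses of H2A.Zac within 1 kb of a TSS among the 47 genes were at TBXAS1 (thromboxane synthase, ratio 39.2) and MMRN1 (multimerin of alpha granules, 36.3). RAB27B, a GTPase of granule release, had 20.9, and GP1BB, which encodes another subunit of the complex that holds GP9, had 12.4. The strongest gains were at FERMT3 (kindlin-3, an activator of integrins, 12.9), VCL (vinculin, 10.7), LYL1 (a basic helix-loop-helix factor, 10.5) and CD9 (a tetraspanin, 10.03). These exceeded every gain at the 8 genes other than the internal one of ITGA2B.

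RUNX1, a transcription factor required for megakaryocyte maturation, had changes in both directions and for both marks. At chr21:35046792-35052122 H2A.Zac was lost with a ratio of 20.6 over 5331 bp, with a lost H2A.Z region of ratio 10.8 inside it. At another start, chr21:34887587-34889455, H2A.Zac was gained with a ratio of 9.38, with a gained H2A.Z region of ratio 12.0. RUNX1 thus shared with ITGA2B a loss of H2A.Zac at one start and a gain of both marks at another. The other H2A.Z changes named by rank were losses at PLEK (pleckstrin, 8.89) and MYL9 (a myosin light chain, 7.22) and gains at F2RL3 (the thrombin receptor PAR4, 7.82) and MEIS1 (a homeobox factor, 7.04).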

How the data were processed

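H2A.Z and H2A.Zac ChIP-seq came from K562 EP400-dTAG cells expressing WT or ΔTRRAP EP400. The authors aligned reads to hg38 with Bowtie2 2.4.5, pooled both replicates of a condition, and ran MACS2 2.2.7.1 bdgdiff between the lines, scaled to equal depth. Regions of at least 250 bp were kept where peaks reproducible at an IDR of 0.05 covered at least 25% of them. The score of each deposited region is the authors' log10 likelihood ratio, which was used only to rank and filter. Depth is unknown here, and input libraries and RNA were not analysed here.

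Regions touching a gene body plus 10 kb were taken with GENCODE release 44, a later release than the authors used. Distances run from the canonical TSS, and a gene has a region at a TSS if it lies within 1 kb of any annotated transcript start. The shares of regions near the start of any gene leave out internal transcript starts. Overlap required 25% coverage. Intervals are Wilson (scipy 1.17.1). Overlaps were tested on 3000 simulated intervals against bedtools 2.31.1, with 0 differences. Alternatives were flanks of 2 and 50 kb, ratios of at least 5 and 10, merging within 1 kb, widths of at least 500 bp, midpoints, nearest starts, other TSS definitions, other overlaps and leaving out ITGB3. All regions at the 8 genes were named or counted. From the 47 other genes, the 5 H2A.Zac and 3 H2A.Z regions with the highest ratio at a TSS per direction were named, and neighboring genes were named where a region described lay at their start. Members and lists were chosen with earlier results of these data known.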

Additional observations from a re-analysis of the deposited data

How the results depend on the processing

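With flanks of 2 kb, the counts became 1 lost H2A.Z region (from 5), 5 lost H2A.Zac regions (from 13) and 17 H2A.Zac regions on H2A.Z (from 27), and with 50 kb they became 13 lost H2A.Z and 25 lost H2A.Zac regions. A likelihood ratio of at least 5 left 8 lost H2A.Zac and 1 gained H2A.Z region. At 10 there were 0 lost and 0 gained H2A.Z regions, 2 lost and 1 gained H2A.Zac regions, and 1 gene with a changed H2A.Zac region at a TSS (from 3). Widths of at least 500 bp left 0 lost H2A.Z, 6 lost and 6 gained H2A.Zac regions. Merging within 1 kb gave 8 lost H2A.Zac regions. Keeping only regions whose nearest protein-coding start is a member's gave 3 lost and 1 gained H2A.Z and 8 lost and 5 gained H2A.Zac regions, partly because a read-through gene starts beside ITGB3. Without ITGB3 there were 3 lost and 1 gained H2A.Z and 6 gained H2A.Zac regions (from 2 and 12 gained). The other 20 of 43 values differed from those reported by at most 4, and gained H2A.Zac regions numbered 9 with flanks of 2 kb, 16 with 50 kb and 10 at a ratio of at least 5. No paired analysis was possible because the lists hold merged replicates, and for the same reason no replicate could be left out and no value per sample could be examined for outliers.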
